A study of Mus musculus with 48 samples.

Results

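The molecular clock of mammalian cells sets transcriptional activators against the genes that they switch on. Its activators and output factors were followed here in the mouse brain under changes of feeding. The set comprised 10 genes: the activators Bmal1, Clock and Npas2, the REV-ERB receptors Nr1d1 and Nr1d2, the PAR bZIP factors Dbp, Tef and Hlf, and the DEC genes Bhlhe40 and Bhlhe41. They were picked by symbol from a table of 56893 genes. All 10 were among the 17352 genes with enough counts to test, and their counts in single libraries lay between 162 and 5695.

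Poly-A RNA had been sequenced from a single hemisphere of each of 48 adult mice aged 5.5 to 8.5 months, with 4 mice in each of 12 groups defined by sex, genotype and feeding state. Controls were Grin1fl/fl without a recombinase, except that female control unrestricted replicate 2 is labelled Grin1fl/+. Knockouts were Aldh1a1+/P2A-CreERT2::Grin1fl/fl. In them a recombinase made from the Aldh1a1 gene removes Grin1, which encodes an obligatory NMDA receptor subunit, from Aldh1a1-expressing cells, which include some dopamine neurons of the midbrain. How the recombinase was induced is not given in the sources used here. Unrestricted mice had lived singly on chow for about 48 hours. Restricted mice were food-restricted on 2 nights and had chow between them. Refed mice had those 2 nights and then ate grain pellets freely from a feeder for 3 days. Feeding state, pellet diet and time in single housing therefore cannot be told apart in the refed mice. Mice are separate animals, so the spread between replicates is biological as well as technical. Each mouse was sampled once and the hour of collection is not given in the sources used here. A changed level and a shifted daily rhythm therefore cannot be told apart. Nor, in RNA of a whole hemisphere, can fewer cells of a type and less RNA per cell.

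As background, CLOCK or its relative NPAS2 pairs with BMAL1 and activates genes through E-box elements. Among these genes are the PER and CRY repressors, the REV-ERB receptors, which repress Bmal1 through ROR elements, and the PAR bZIP factors, which act on D-box elements. The DEC proteins are E-box-binding repressors induced by the same activators. In most tissues the Bmal1 transcript peaks nearly opposite in the day to Dbp and Nr1d1, so the pair of directions is often read as a marker of clock phase. Clocks outside the suprachiasmatic nucleus, the light-set pacemaker of the hypothalamus, can be set by the timing of meals.

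The elements named above were searched in the promoters, taken as 250 bases before to 50 bases after the start of the canonical transcript in GENCODE M39 on GRCm39, the build named by the submitters' processing notes as mm39. The E-box letters CACGTG lay in the promoters of Tef, Bhlhe40 and Bhlhe41, which is 3 of 10 members beside 7.81% of 21770 protein-coding promoters. The ROR element letters TAGGTCA lay in that of Dbp, 1 of 10 beside 2.49%. The D-box letters TTATGTAA and TTACGTAA lay in none, beside 0.937% and 0.138% of all. Both strands were read, and no match overlapped another. These are letter matches and not measured binding. The 4 sites are shown because each belongs to a gene called in a comparison of feeding states over all mice. The match is in capitals and each sequence is read 5′ to 3′ on the strand of its gene:
Dbp site: attggccaaataTAGGTCAgtgtcccgcct
Tef site: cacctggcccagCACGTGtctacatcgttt
Bhlhe40 site: ccgcgtccgggcCACGTGaagcgtcacgcc
Bhlhe41 site: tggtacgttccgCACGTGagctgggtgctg

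The Dbp site is at chr7:45354311-45354340 on the plus strand and begins its match 189 bases before the start. That of Tef is at chr15:81695465-81695494 on the plus strand, with the match 138 bases before the start. The Bhlhe40 site, at chr6:108636392-108636421 on the plus strand, has it 222 bases before the start. In Bhlhe41, at chr6:145811282-145811311 on the minus strand, the E-box begins 1 base before the start. All 250 bases before the Bhlhe40 start lie in annotated exons, as do 101 of the 250 before that of Dbp, and both matches fall in them. All 3 PAR bZIP factors were called in refed against unrestricted mice. The longest unbroken stretch outside annotated exons, within the 250 bases before each start, is therefore given too. It measures 149 bases for Dbp (chr7:45354363-45354511, plus strand), 146 for Tef (chr15:81695469-81695614, plus strand) and 250 for Hlf (chr11:90281762-90282011, minus strand), and only that of Tef holds one of the searched elements:
Dbp upstream: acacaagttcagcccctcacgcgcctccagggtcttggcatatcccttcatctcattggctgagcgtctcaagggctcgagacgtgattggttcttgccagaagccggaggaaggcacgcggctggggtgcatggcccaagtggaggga
Tef upstream: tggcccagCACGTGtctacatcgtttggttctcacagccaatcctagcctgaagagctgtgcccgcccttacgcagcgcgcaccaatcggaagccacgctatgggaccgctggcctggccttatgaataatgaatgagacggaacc
Hlf upstream: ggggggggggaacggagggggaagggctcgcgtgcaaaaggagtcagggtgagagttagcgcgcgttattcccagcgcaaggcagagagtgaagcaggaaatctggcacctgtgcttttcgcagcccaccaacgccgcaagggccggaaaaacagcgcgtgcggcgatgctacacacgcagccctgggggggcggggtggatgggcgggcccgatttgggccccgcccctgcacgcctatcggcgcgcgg

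Output factors were more abundant than activators when levels were compared per length of transcript. Tef stood highest at 90.3 ± 9.44 CPM per kilobase (SD, n = 48 mice), with CPM meaning counts relative to library size after TMM scaling between libraries. Dbp followed at 46.5 ± 9.19 and Nr1d1 at 40.6 ± 4.35 CPM per kilobase, 2 neighbours whose spreads overlapped. Nr1d2 was at 31.01 ± 3.93 and Hlf at 27.6 ± 2.73 CPM per kilobase, again within each other's spread. Bhlhe40 was at 19.6 ± 2.22 CPM per kilobase. The lowest levels per kilobase were those of Bhlhe41 at 8.75 ± 1.24, Clock at 7.74 ± 0.575, Npas2 at 7.33 ± 1.30 and Bmal1 at 5.93 ± 0.743, where each overlapped its neighbours. Lengths are those of the canonical transcript, which need not be the isoform made. Some members overlap a protein-coding neighbour on the opposite strand: Nr1d1 overlaps Thra, Dbp overlaps Sphk2, Clock overlaps Tmem165 and Hlf overlaps Mmd. Estimated counts were whole numbers (within 0.01) in 2.08% of libraries for Nr1d1 and Bhlhe41 and in 4.17% for Dbp, beside 100% for Bmal1, Clock, Npas2, Nr1d2 and Hlf. Whether counting used strand is not given in the sources used here, so part of the Nr1d1, Dbp and Bhlhe41 levels is uncertain.

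Library totals ranged from 7574827 to 16185373 counts, with a median of 10515486. Aldh1a1 lay between 79.0 and 147 CPM in knockouts and between 139 and 242 CPM in controls (log2 difference -0.92, SE 0.054, edgeR adjusted p = 1.42e-16). Grin1 lay between 307 and 410 CPM in knockouts and between 250 and 470 CPM in controls (log2 difference 0.02, edgeR adjusted p = 1). Vip was at 10.4 to 22.1 CPM, Avp at 0.415 to 13.5 CPM, Nms at 0 in 18 libraries and Six6 at 0 in 14. Of these 4 genes, listed as markers of the suprachiasmatic nucleus, Vip was thus well detected and Nms and Six6 were near the floor. Which cells of the hemisphere the Vip and Avp RNA came from was not tested. Nor was the share of the nucleus in the levels below. In all, 3 libraries stood apart. Male control refed replicates 2 and 1 had the largest root mean square deviations from group means, 0.304 and 0.241 log2 CPM (median over libraries 0.129). Replicate 1 also had the skeletal muscle gene Acta1 at 1143 CPM, beside at most 76.1 CPM in any other library. Female knockout unrestricted replicate 2 had 7.78% of its counts in Rn18s-rs5, beside at most 1.92% elsewhere. Its root mean square deviation, 0.159, was exceeded in further libraries, such as male control restricted replicate 3 at 0.195. The labels number the libraries, and all 16 refed libraries bear numbers up to 28, together with 5 of 16 unrestricted and 7 of 16 restricted ones. What the numbers stand for is not given in the sources used here. The members' changes in refed mice, over both sexes, are therefore also given with a term for number up to 28 against from 29 and within the libraries up to 28. For the lists of other genes this was not run.

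**Figure D1:**
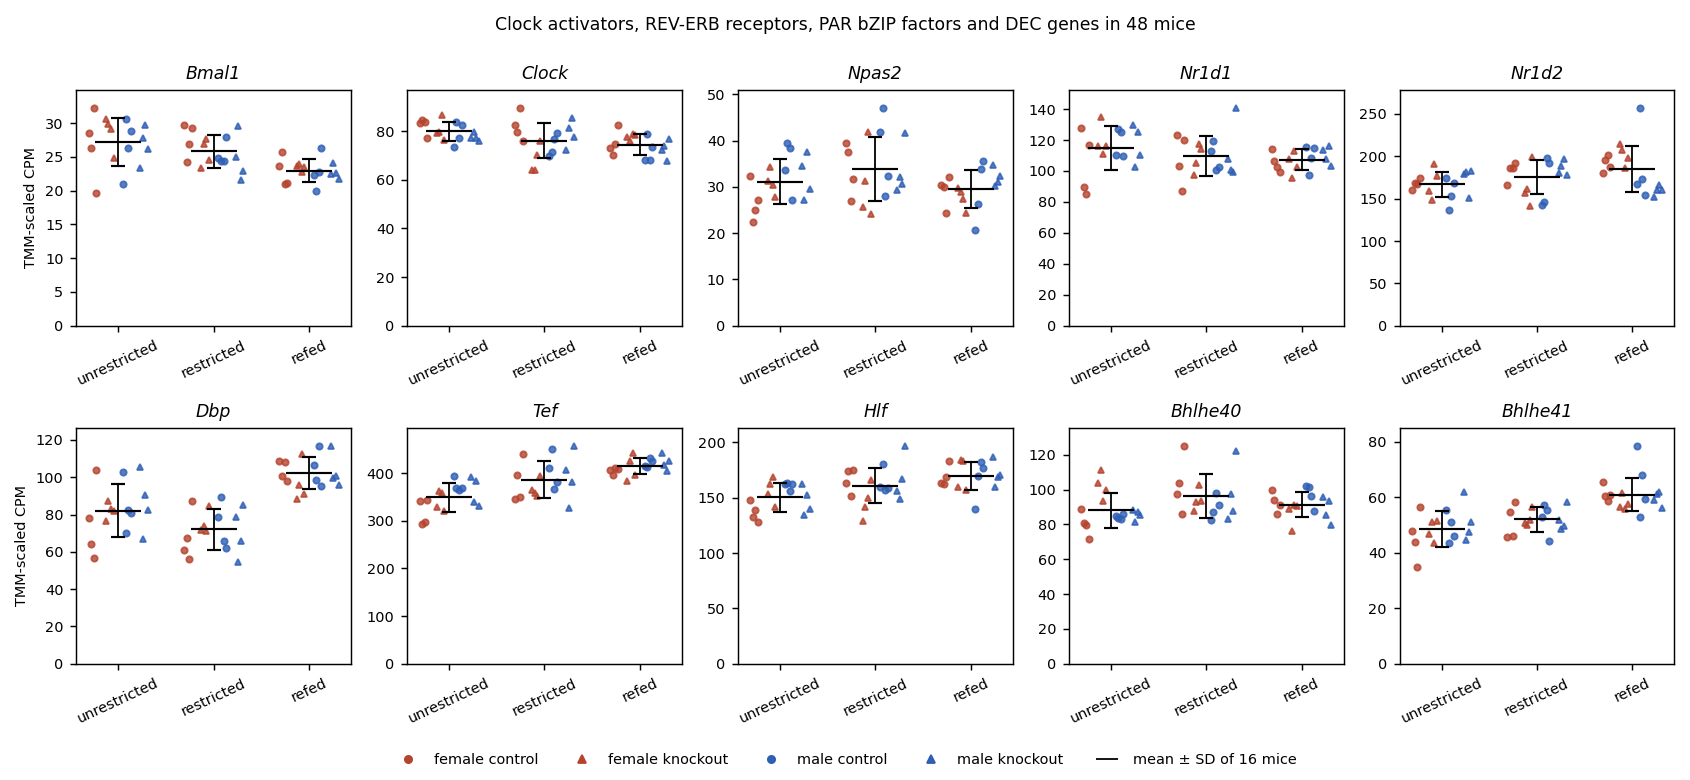
Levels of the 10 genes in every mouse, as TMM-scaled CPM on the vertical axis and by feeding state on the horizontal axis, with colour for sex, symbol for genotype and black bars for the mean ± SD of 16 mice. Dbp lay between 88.3 and 117 CPM in refed mice and between 54.7 and 89.2 CPM in restricted mice, and Bmal1 had its lowest mean, 22.96 CPM, in refed mice.

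After refeeding, PAR bZIP factors and Bhlhe41 were higher and Bmal1 was lower than in mice that had never been restricted. Over both sexes and genotypes, 4 of 10 members were higher and 1 was lower at an adjusted p under 0.05 (edgeR quasi-likelihood test, Benjamini-Hochberg over all genes tested), beside 0.738% of all genes, 0.467% higher and 0.271% lower. The median size of the change without its sign was 0.159 on the log2 scale for the members and 0.0623 for all genes. At an unadjusted p under 0.05 there were 7 of 10 members, beside 13% of all genes. The members were chosen with earlier results of these data known. These shares and those of the comparisons below therefore describe the set and do not test it.

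Among the activators, Bmal1 had a lowest, median and highest value of 19.7, 28.2 and 32.3 CPM in unrestricted mice and of 20.0, 22.7 and 26.4 CPM in refed mice. All 16 refed mice lay below the unrestricted median, although the ranges overlapped. Bmal1 fell by 0.24 on the log2 scale (SE 0.056, edgeR adjusted p = 0.0203). Clock, its partner, had medians of 79.4 CPM in unrestricted and 74.1 CPM in refed mice. Its log2 change was -0.10 (SE 0.032, edgeR adjusted p = 0.127), and 15 of 16 refed mice lay below the unrestricted median. Npas2, the alternative partner of BMAL1 in forebrain, changed by -0.08 (SE 0.082, edgeR adjusted p = 0.709), with 10 of 16 refed mice below the unrestricted median.

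The REV-ERB receptors, direct repressors of Bmal1, did not pass the test in refed against unrestricted mice and had opposite signs. Nr1d1 had a log2 change of -0.10 (95% interval -0.21 to 0.01). Nr1d2 had one of 0.14 (95% interval 0.03 to 0.26, edgeR adjusted p = 0.256). Nr1d2 in males was spread by male control refed replicate 2 at 257 CPM, beside 151 to 173 CPM in the other 7 refed males. Without that library its log2 change was 0.09.

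All 3 PAR bZIP factors rose in refed against unrestricted mice. Dbp, the D-box-binding activator with the widest daily swing of the family, had a lowest, median and highest value of 56.7, 82.2 and 106 CPM in unrestricted and 88.3, 100.1 and 117 CPM in refed mice. All 16 refed mice lay above the unrestricted median and 6 above the highest unrestricted mouse. Its rise was 0.32 on the log2 scale (SE 0.072, edgeR adjusted p = 0.0192). Tef, a relative with a shallower rhythm in most tissues, went from 293, 350 and 394 CPM to 384, 414 and 442 CPM, again as lowest, median and highest. For Tef 15 of 16 refed mice exceeded every unrestricted mouse, and the log2 rise was 0.25 (SE 0.040, edgeR adjusted p = 0.000184). Hlf, the third factor, went from 128, 153 and 168 CPM to 140, 169 and 187 CPM. Its ranges overlapped more, with 10 of 16 refed mice above the highest unrestricted mouse, and its log2 rise was 0.18 (SE 0.042, edgeR adjusted p = 0.0294). The Hlf call held in 41 of 48 fits that each left out a single library, and its adjusted p reached 0.0611.

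Of the DEC genes, only Bhlhe41 (DEC2) passed the test in refed against unrestricted mice. Its lowest, median and highest values were 34.7, 47.7 and 61.9 CPM in unrestricted and 53.0, 59.9 and 78.6 CPM in refed mice. All 16 refed mice lay above the unrestricted median, and the log2 rise was 0.33 (SE 0.055, edgeR adjusted p = 0.00055). Bhlhe40 (DEC1) had a log2 change of 0.06 (95% interval -0.03 to 0.15). The difference between the 2 DEC genes was not tested.

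These 5 calls did not hold once library number was taken into account. With a term for number, 0 of 10 members passed and 19 genes did. The log2 changes were then -0.23 for Bmal1, 0.23 for Dbp, 0.22 for Tef (edgeR adjusted p = 0.0610), 0.16 for Hlf and 0.28 for Bhlhe41 (edgeR adjusted p = 0.105). A fit additive in feeding state, sex and genotype was made within libraries up to 28, which leaves 5 unrestricted against 16 refed mice. In it 0 of 10 members and 6 genes passed. The log2 changes there were -0.19, 0.18, 0.19, 0.10 and 0.21 in the same order, so all 5 kept their sign. The sexes looked different in this set: the 2 unrestricted males up to 28 had Dbp at 103 and 106 CPM, within the 95.01 to 117 CPM of refed males, whereas the 6 unrestricted males from 29 had 66.8 to 90.4 CPM. The 3 unrestricted females up to 28 had Dbp at 76.3 to 87.0 CPM, below all refed females, whose lowest value was 88.3 CPM. Feeding state and whatever library number stands for cannot be fully told apart for refed mice.

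**Figure D2:**
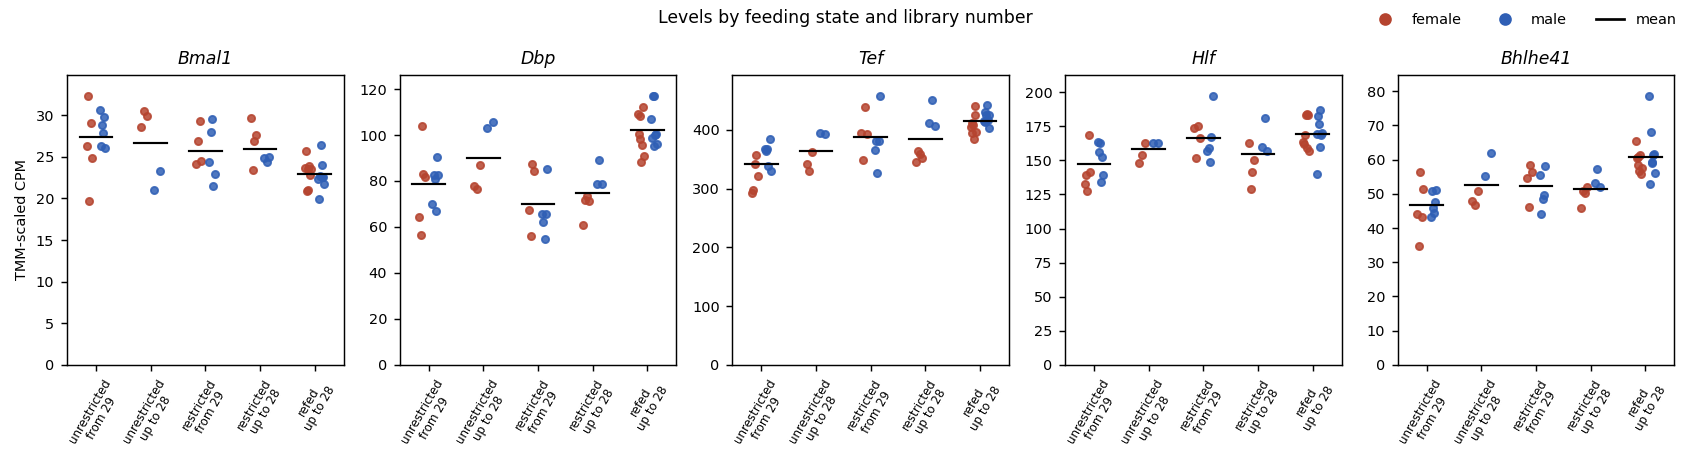
Levels in TMM-scaled CPM (vertical axis) of the 5 genes called in refed against unrestricted mice, by feeding state and by library number up to 28 or from 29 (horizontal axis), with a point per mouse coloured by sex and a line at the mean. In unrestricted mice the mean of Dbp was 89.9 CPM up to 28 and 78.5 CPM from 29, below the 102.1 CPM of refed mice.

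Against restricted mice, refed mice had much more Dbp, more Bhlhe41 and less Bmal1. In this comparison 3 of 10 members passed, beside 15.2% of all genes, 2 of them higher (8.38% of all genes) and 1 lower (6.79%). The median size of change was 0.0906 on the log2 scale for the members and 0.0871 for all genes, so as a set the members moved little more than other genes. This comparison shares its refed mice with the one above.

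Dbp had a lowest, median and highest value of 54.7, 71.5 and 89.2 CPM in restricted mice. The refed values given above put 15 of 16 refed mice above the highest restricted mouse. The rise was 0.50 on the log2 scale (SE 0.072, edgeR adjusted p = 1.37e-06) and it passed in all 48 fits that left out a library. Within each combination of sex and genotype the means of 4 mice showed it too. In female controls Dbp went from 68.0 ± 13.7 to 103.9 ± 5.52 CPM (SD, n = 4). In female knockouts it went from 75.3 ± 6.21 to 96.8 ± 10.7 CPM, in male controls from 73.9 ± 12.4 to 104.3 ± 9.70 CPM, and in male knockouts from 71.1 ± 13.6 to 103.3 ± 9.30 CPM. With the term for library number the Dbp rise was 0.43 (edgeR adjusted p = 0.000289), and within libraries up to 28 it was 0.44 (edgeR adjusted p = 6.39e-06, 7 restricted and 16 refed mice). It was thus nearly as large within the numbered set.

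Bhlhe41 had a lowest, median and highest value of 44.2, 51.9 and 58.4 CPM in restricted mice, and 11 of 16 refed mice exceeded the highest of them. Its log2 rise was 0.23 (SE 0.055, edgeR adjusted p = 0.00297). It was 0.19 with the term for library number (edgeR adjusted p = 0.0504) and 0.23 within libraries up to 28 (edgeR adjusted p = 0.00592). Bmal1 had 21.5, 24.9 and 29.7 CPM in restricted mice, and 14 of 16 refed mice lay below the restricted median. It fell by 0.17 on the log2 scale (SE 0.056, edgeR adjusted p = 0.0331). The Bmal1 call ended with the term for library number (log2 change -0.16, edgeR adjusted p = 0.112), within libraries up to 28 (-0.17, edgeR adjusted p = 0.0561), with voom and sample weights (-0.15, limma adjusted p = 0.0519) and without the 3 libraries that stand apart (-0.15, edgeR adjusted p = 0.0689). Npas2 missed the threshold in refed against restricted mice at a log2 change of -0.20 (SE 0.081, edgeR adjusted p = 0.0800). Npas2 passed it with the term for library number (-0.32, edgeR adjusted p = 0.0107), without a filter on low counts (-0.20, edgeR adjusted p = 0.0464) and within libraries up to 28 (-0.32, edgeR adjusted p = 0.0164). Tef had a log2 change of 0.10 (edgeR adjusted p = 0.0691) and Hlf of 0.08 (edgeR adjusted p = 0.226).

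**Figure D3:**
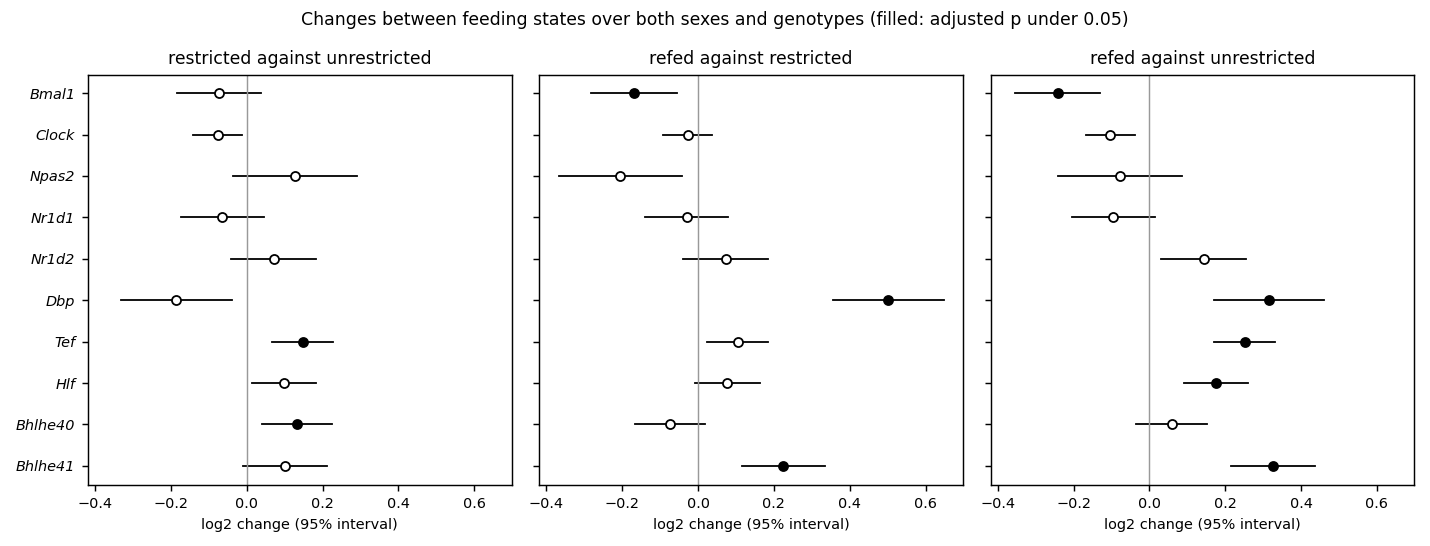
Log2 changes of the 10 genes (points) with 95% intervals (lines) in the 3 comparisons of feeding states over all mice, filled where the adjusted p is under 0.05. Dbp had the largest rise, 0.50, in refed against restricted mice, and Bmal1 lay below 0 in all 3 panels.

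Tef and Bhlhe40 were higher in restricted than in unrestricted mice, and no member was called lower. That is 2 of 10 members beside 15.2% of all genes, or 7.31% counting higher ones alone, a share near the background. At an unadjusted p under 0.05 there were 5 of 10 members beside 26.8% of genes, and the median size of change was 0.100 on the log2 scale beside 0.0808 for all genes. Tef went to a lowest, median and highest value of 326, 381 and 458 CPM in restricted mice, with 13 of 16 above the unrestricted median. Its log2 rise was 0.15 (SE 0.040, edgeR adjusted p = 0.00743), and it passed in all 48 fits that left out a library. With the Tef comparison split by library number, the log2 change was 0.08 up to 28 (edgeR adjusted p = 0.440) and 0.18 from 29 (edgeR adjusted p = 0.0580), so neither set alone passed. Bhlhe40 had 71.9, 85.6 and 111 CPM in unrestricted and 82.6, 93.2 and 125 CPM in restricted mice, ranges that largely overlapped. Its log2 rise was 0.13 (SE 0.046, edgeR adjusted p = 0.0419), and it passed in 29 of 48 fits that left out a library, with an adjusted p of up to 0.103 without male knockout restricted replicate 4.

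The Bhlhe40 change had opposite signs in the differently numbered libraries. It was -0.065 on the log2 scale up to 28 (edgeR adjusted p = 0.729) and 0.25 from 29 (edgeR adjusted p = 0.0167). Dbp went the other way from Tef in restricted against unrestricted mice, with a log2 change of -0.19 (SE 0.073, edgeR adjusted p = 0.0768). It missed the threshold, which it passed without a filter on low counts (-0.19, edgeR adjusted p = 0.0415), with the term for library number (-0.20, edgeR adjusted p = 0.0491) and up to 28 (-0.26, edgeR adjusted p = 0.0443), and 12 of 16 restricted mice lay below the unrestricted median. Bmal1 had a log2 change of -0.07 (95% interval -0.18 to 0.04), Npas2 of 0.13 (95% interval -0.04 to 0.29) and Nr1d1 of -0.06 (95% interval -0.17 to 0.04).

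Genes of other cells and of stress moved in the same comparisons, and their counts are to be read against the shares of all genes given above for each comparison and direction. In restricted against unrestricted mice 12 of 13 glucocorticoid-responsive genes rose, and their summed level went from between 623 and 898 CPM to between 1080 and 1363 CPM. In refed against restricted mice all 13 fell, to between 603 and 905 CPM. Of oligodendrocyte markers 3 of 4 were lower, Mbp being the exception, with summed levels of 7081 to 12921 CPM in unrestricted and 6271 to 11903 CPM in restricted mice. The median of that sum was 9148 CPM in unrestricted and 10095 CPM in restricted mice, against the direction of the 3 called markers. Of microglia markers 3 of 4 were lower, with 93.6 to 116 CPM and 71.1 to 104 CPM. Against restricted mice, 3 of 4 oligodendrocyte and 4 of 4 microglia markers were higher in refed mice. Red cell markers, 3 of 3, rose in refed mice against both other states, with summed levels of 178 to 946 CPM in unrestricted, 188 to 554 CPM in restricted and 498 to 1762 CPM in refed mice. None of these oligodendrocyte, microglia and red cell markers was at 0 in any library. Of the 4 genes listed as markers of the suprachiasmatic nucleus, the 2 tested were Vip and Avp, whose cells of origin are not known here. Of these 1 was higher in restricted against unrestricted mice and 1 was lower in refed against restricted mice. Among astrocyte markers 1 of 4 was lower in restricted against unrestricted mice and 1 of 4 was higher in refed against restricted mice. Among endothelium markers 1 of 3 was lower in restricted against unrestricted mice. The part of all these genes in the changes of the clock genes was not tested.

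Within each sex fewer members passed. In females Tef alone was called in restricted against unrestricted mice (log2 change 0.18, SE 0.056, edgeR adjusted p = 0.0441), 1 of 10 members beside 6.27% of genes (3.02% higher, 3.25% lower). The Tef call held in 40 of 48 fits that left out a library and had an adjusted p of up to 0.138 without female control restricted replicate 4. In males none was, beside 8.28% (4.44% higher, 3.83% lower), and 3 of 10 members had an unadjusted p under 0.05 beside 21.1% of genes. For refed against restricted mice, Dbp rose in females by 0.49 (SE 0.103, edgeR adjusted p = 0.00172) and in males by 0.52 (SE 0.102, edgeR adjusted p = 0.000564). Bhlhe41 joined it in males (0.25, SE 0.077, edgeR adjusted p = 0.0359), which makes 1 of 10 beside 6.1% in females (3.51% higher, 2.59% lower) and 2 of 10 beside 8.33% in males (4.84% higher, 3.49% lower). The Bhlhe41 call in males held in 39 of 48 fits that left out a library, and its adjusted p reached 0.126 without male control refed replicate 1. With the term for library number the Dbp rise was 0.42 in females (edgeR adjusted p = 0.0122) and 0.44 in males (edgeR adjusted p = 0.00945). Under that term Bhlhe41 in males no longer passed (0.21, edgeR adjusted p = 0.163), and Nr1d2 in females did (0.26, edgeR adjusted p = 0.0324). Tef was the single member called in refed against unrestricted females (0.30, SE 0.056, edgeR adjusted p = 0.00759), 1 of 10 beside 0.0403% of genes (0.0346% higher). With the term for library number the Tef change was 0.27 (edgeR adjusted p = 0.144), and no member passed. At an unadjusted p under 0.05 there were 6 of 10 members beside 5.09% of genes in this comparison, and 7 of 10 beside 19% in refed against restricted females. In males 0 of 10 were called there beside 0.167%, 6 of 10 had an unadjusted p under 0.05 beside 13.4% of genes, with Bhlhe41 nearest at 0.31 (edgeR adjusted p = 0.0765). Leaving out male control refed replicate 2 raised the count of called members to 3 of 10, and voom with sample weights gave 5 of 10. The count of all genes called rose steeply under both settings too, as given at the end of the report.

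The test of the difference itself, sex by feeding state, called 0 of 10 members and 0% of all genes in edgeR, while 1101 genes and 0 of 10 members had unadjusted p-values under 0.05. With DESeq2, 1 gene and no member passed. Male against female mice, averaged over genotype and state, gave 0 of 10 members beside 0.357% of genes. The nearest were Tef, with a log2 difference (male minus female) of 0.10 (SE 0.032, edgeR adjusted p = 0.136), and Npas2, with 0.15 (SE 0.066, edgeR adjusted p = 0.227). With voom and sample weights 2 of 10 members passed, among 1902 of 17352 genes.

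No member differed detectably between knockouts and controls. Knockout against control gave 0 of 10 over all mice, in females and in males, beside 0.00576% of genes (Aldh1a1 alone) in each. DESeq2 called 0 of 10 members too, among 3, 5 and 3 genes. In edgeR, 430, 772 and 542 genes had an unadjusted p under 0.05 in the same order, with 0, 1 and 0 members among them. The member was Clock in females, with a log2 difference of -0.08 (unadjusted p = 0.0399, edgeR adjusted p = 1). The log2 differences over all mice ran from -0.03 for Clock (95% interval -0.08 to 0.02) to 0.04 for Nr1d1 (95% interval -0.05 to 0.13), and the median size was 0.0144 beside 0.0297 for all genes. The widest interval was that of Npas2, -0.16 to 0.11. Genotype by feeding state gave 0 of 10 members and 0% of genes, with 1 of 10 members and 792 genes at an unadjusted p under 0.05. That member was Bhlhe40 (unadjusted p = 0.00929, edgeR adjusted p = 0.973). In female controls it went from 80.3 ± 6.98 CPM unrestricted to 103.2 ± 16.4 CPM restricted (SD, n = 4), and in female knockouts from 102.0 ± 7.48 to 94.2 ± 6.06 CPM.

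Activators and outputs were then set against each other in each mouse, as the mean log2 CPM of Nr1d1, Nr1d2, Dbp, Tef and Hlf minus that of Bmal1, Clock and Npas2. A higher index means more output for the activators present. It was 1.90 ± 0.152 in unrestricted, 1.92 ± 0.156 in restricted and 2.20 ± 0.101 in refed mice (SD, n = 16 each). Refed mice stood 0.299 above unrestricted and 0.275 above restricted mice, beside a spread within groups of 0.149 (pooled SD), and restricted stood 0.0235 above unrestricted mice. No p is given, since the genes were chosen with results of these data known. The lowest and highest values were 1.64 and 2.17 in unrestricted, 1.68 and 2.22 in restricted and 2.01 and 2.37 in refed mice, so the ranges overlapped.

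The index moved with both of its sides unevenly. With the PAR bZIP factors as the only outputs, refed stood 0.389 above unrestricted mice, and with the REV-ERB receptors as the only outputs 0.162. The displacement was present in each sex: female means were 1.88 ± 0.155 unrestricted and 2.20 ± 0.0813 refed, and male means 1.92 ± 0.157 and 2.20 ± 0.124 (SD, n = 8). Library number went with the index in unrestricted males, a difference that was not tested. The 2 unrestricted males up to 28 had 2.12 and 2.15, inside the 2.01 to 2.37 of refed males, while the 6 from 29 had 1.67 to 1.95. The 3 unrestricted females up to 28 had 1.80 to 1.87, below the 2.12 to 2.36 of refed females. Restricted males showed no such gap, with means of 1.95 up to 28 and 1.92 from 29. Restricted mice up to 28, at 1.89 ± 0.144 (SD, n = 7), stayed near restricted mice from 29, at 1.95 ± 0.169 (SD, n = 9).

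**Figure D4:**
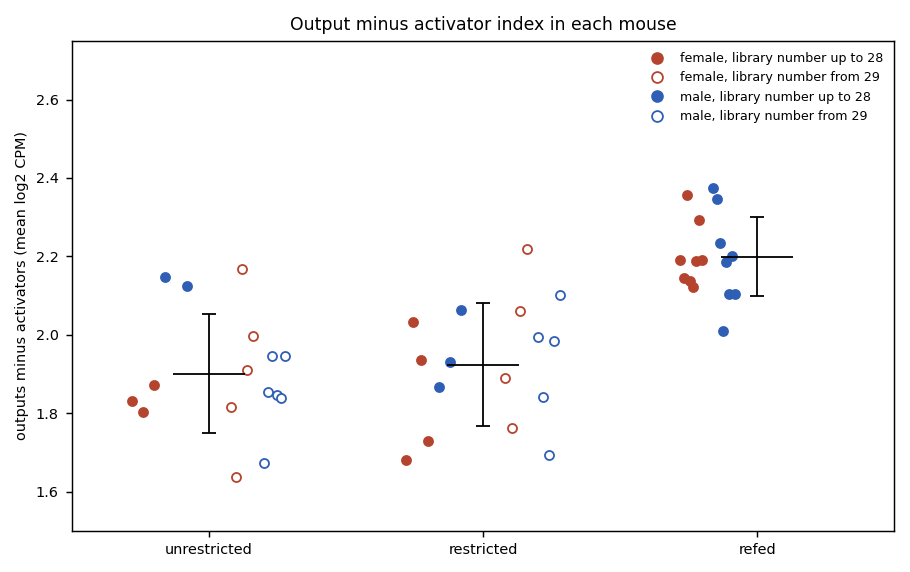
The mean log2 CPM of 5 output genes minus that of 3 activators (vertical axis) in every mouse by feeding state (horizontal axis), with colour for sex, filled symbols for library numbers up to 28 and black bars for the mean ± SD of 16 mice. Refed mice lie between 2.01 and 2.37, and the 2 filled male symbols among unrestricted mice lie at 2.12 and 2.15.

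Members also varied together or oppositely between mice of the same group, though not simply as outputs against activators. After group means were removed, 19 of 45 pairs of members were correlated over the 48 mice at an adjusted p under 0.05 (permutation within groups, 100000 resamples, two-sided, Benjamini-Hochberg over 45 pairs), 12 positively and 7 negatively, and 17 also by Spearman's rho. The share among pairs of other genes was not computed. These counts and those below are therefore not shown to be particular to the members. The strongest was Dbp with Tef, with a Pearson r of 0.839 and a rho of 0.848 (permutation p = 1e-05 for both, the smallest these resamples can give, adjusted p = 0.000225). Leaving out the 2 mice farthest from the Dbp median gave 0.833. Dbp with Bhlhe41 had r = 0.755 and rho = 0.723 (permutation p = 1e-05, adjusted p = 0.000225), and 0.702 without the 2 farthest. Tef with Hlf had r = 0.673 and rho = 0.649 (permutation p = 3e-05 and 5e-05, adjusted 0.00045 and 0.00075), and 0.600 without the 2 farthest. Nr1d2 did not share in this: its r was -0.0698 with Dbp, -0.156 with Tef and -0.0538 with Hlf, and none of these pairs passed. Bhlhe40 with Dbp (r = 0.236) and Hlf with Bhlhe41 (r = 0.104) did not pass either.

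Of the activators, Bmal1 and Clock were negatively correlated with Dbp and Bhlhe41, and Bmal1 also with Nr1d2 (r = -0.359), but not with every output. Bmal1 with Nr1d1 had an r of 0.00054 and with Hlf of -0.0192, and Clock had 0.328 with Nr1d2 and 0.209 with Hlf, none of which passed. Bmal1 with Dbp had r = -0.545 and rho = -0.410 (permutation p = 0.00388 and 0.0148, adjusted 0.0125 and 0.0391), and -0.398 without the 2 farthest. Clock with Dbp had r = -0.488 and rho = -0.553 (permutation p = 0.00079 and 0.00034, adjusted 0.00495 and 0.00191), and -0.565 without the 2 farthest. Clock with Bhlhe41 had r = -0.531 and rho = -0.568 (permutation p = 0.00026 and 0.00029, adjusted 0.00225 and 0.00191). Npas2 was positively correlated with Hlf, at r = 0.545 and rho = 0.537 (permutation p = 0.00088 and 0.00059, adjusted 0.00495 and 0.00295). With Nr1d1 it had r = 0.584 and rho = 0.611 (permutation p = 0.00011 and 9e-05, adjusted 0.00124 and 0.00101), and with Nr1d2 r = -0.571 and rho = -0.620 (permutation p = 0.00326 and 0.00015, adjusted 0.0113 and 0.00135). The receptors themselves were opposed, at r = -0.439 and rho = -0.512 (permutation p = 0.0003 and 0.00032, adjusted 0.00225 and 0.00191).

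When means of group and library-number set were removed together, which leaves 6 sets with a single mouse, 14 of 45 pairs passed. Dbp with Tef was then at r = 0.808 (adjusted p = 0.0018 by permutation), Dbp with Bhlhe41 at 0.701 (adjusted p = 0.00338) and Clock with Dbp at -0.511 (adjusted p = 0.0133). Bmal1 with Dbp no longer passed at r = -0.477 (adjusted p = 0.210), and it was -0.198 without the 2 farthest mice. With group means alone removed, r without the 2 farthest mice had been -0.398. Sets of few mice permit few permutations, so how far the relation of Bmal1 with Dbp rests on few mice was not tested. Bmal1 with Bhlhe41 (r = -0.462, adjusted p = 0.210 by permutation), Bmal1 with Nr1d2 (r = -0.343, adjusted p = 0.132) and Npas2 with Nr1d2 (r = -0.407, adjusted p = 0.238) no longer passed either. The same held between outputs and DEC genes for Nr1d1 with Hlf (r = 0.315, permutation adjusted p = 0.258), Dbp with Hlf (0.374, 0.132) and Tef with Bhlhe41 (0.374, 0.1755). Clock with Nr1d1 (r = -0.518, permutation adjusted p = 0.0179) and Npas2 with Tef (0.403, 0.0395) passed here only. All pairs share libraries and their scaling.

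**Figure D5:**
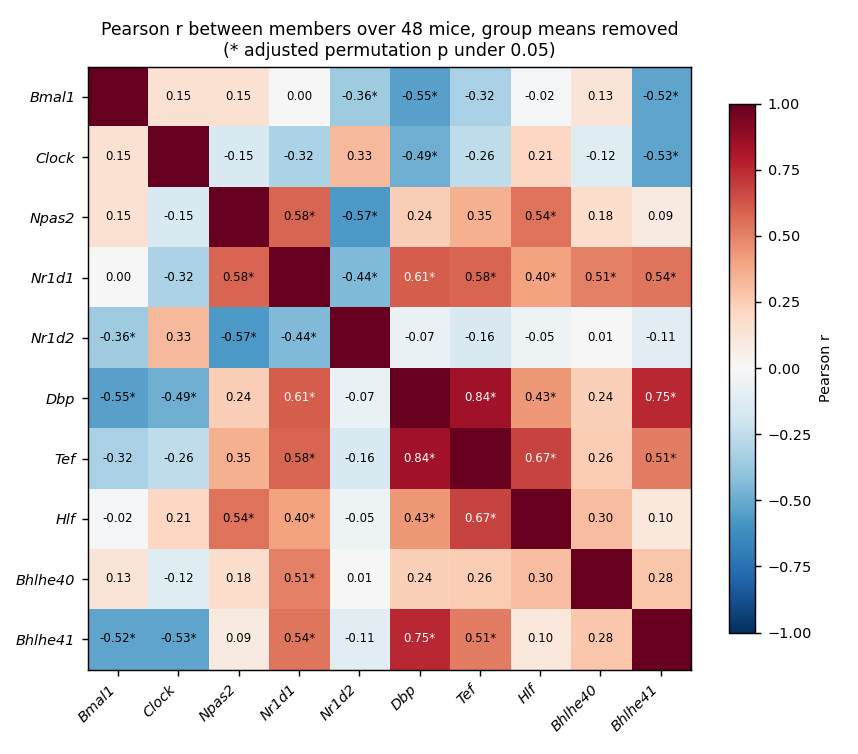
Pearson r between each pair of the 10 genes over 48 mice after removal of group means, with red for positive, blue for negative and a star for an adjusted permutation p under 0.05. The block of Nr1d1, Dbp, Tef and Hlf is positive, with 0.84 for Dbp and Tef, and Bmal1 and Clock are negative with Dbp and Bhlhe41.

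Other clock genes, among them the PER and CRY repressors, were also called between feeding states. Of 18 other clock genes, 6 were higher and 1 lower in restricted against unrestricted mice, beside 7.31% and 7.84% of all genes. The period genes Per1, with a log2 rise of 0.35 (SE 0.061), and Per2, with 0.49 (SE 0.080), were among the higher ones, together with Cry1 (0.30), Cry2 (0.18), Ciart (0.45) and Bmal2 (0.24), and Rorb fell by 0.24. In refed against restricted mice 2 of 18 were higher, Per3 by 0.25 and Rorb by 0.23, beside 8.38% of all genes. Per1 alone was lower, by 0.34, beside 6.79% of all genes, so both counts were near the background. In refed against unrestricted mice 3 of 18 were higher, beside 0.467% of all genes: Per2 by 0.65 (SE 0.080), Per3 by 0.36 and Cry1 by 0.32. Nfil3, a D-box repressor that opposes the PAR bZIP factors, alone was lower, by 0.37 (SE 0.088), beside 0.271% of all genes. Thus Per2 and Cry1 passed in restricted and in refed mice against unrestricted ones, while Dbp passed in refed mice only and had a negative sign after restriction. These comparisons share the unrestricted mice, and the difference between genes was not tested. Of 7 clock-controlled genes, 5 were higher after restriction (7.31% of all genes), among them Cirbp by 0.50 and Tsc22d3 by 0.59, and 3 were lower in refed than in restricted mice (6.79% of all genes). In refed against unrestricted mice Tsc22d3 alone was higher, by 0.30 (0.467% of all genes). Tsc22d3 is also a target of glucocorticoids. Of 9 immediate early genes, 1, 2 and 3 were lower in the 3 comparisons in the order restricted against unrestricted, refed against restricted and refed against unrestricted, beside 7.84%, 6.79% and 0.271% of all genes.

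By Pearson r of log2 CPM over all 48 mice, the genes outside the set most like Dbp were Garem2 (0.714), Igdcc4 (0.694), Per3 (0.693), Sh3pxd2b (0.692) and Flot1 (0.691). Within groups Per3 had the highest of these at 0.672. Those most like Bmal1 were Mmp14 (0.631), Klf10 (0.585), Dusp6 (0.580), Nab2 (0.573) and Vegfa (0.566). These r values are descriptions over mice that share feeding states and libraries. Mmp14 went from a mean of 12.7 CPM in unrestricted to 10.5 in restricted and 8.97 CPM in refed mice, and Garem2 from 17.9 to 16.05 and 20.5 CPM.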

How the data were processed

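The authors deposited a table of estimated counts per gene symbol. Per the submitters' processing notes, fastp, STAR and Salmon were used with mm39, and versions are not given in the sources used here. Estimated counts were rounded and genes with low counts removed with filterByExpr of edgeR 4.0.16 (minimum count 10). Libraries were scaled by TMM, and a quasi-likelihood model with 12 group coefficients was fitted to all 48 libraries in R 4.3.3. P-values were adjusted over 17352 genes, with a threshold of 0.05. Levels are TMM-scaled CPM, with a prior count of 2 for logarithms. Library totals are given in the report.

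All 10 members were named by rule. The members and lists were chosen with earlier results of these data known. Replicate numbers follow the order of sample records and pair nothing. Alternatives were DESeq2 1.42.0, RLE factors, no filter, limma 3.58.1 voom with sample weights, age as a covariate, library number, and each library left out. The steps were tested on simulated counts. Leaving out the 3 libraries that stand apart was chosen after seeing the data.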

Additional observations from a re-analysis of the deposited data

Results flagged for a closer look

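In each group of 4 mice the highest and lowest level of each member were compared with the nearest other mouse. A gap wider, as a share of the group's range, than Dixon's 95% critical value was found in 6 of 120 group values, where chance gives about 6. The distant values were Bmal1 at 27.95 CPM in male control restricted replicate 4, Nr1d2 at 151 CPM in male knockout unrestricted replicate 3, Tef at 394 CPM in male control unrestricted replicate 1, Hlf at 156 CPM in male control unrestricted replicate 3, Hlf at 181 CPM in male control restricted replicate 2 and Bhlhe40 at 76.5 CPM in female knockout refed replicate 2. The nearest other mice stood at 24.8, 179, 368, 162, 160 and 89.0 CPM in the same order. Male control unrestricted replicate 1 is also 1 of the 2 unrestricted males numbered up to 28.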

How the results depend on the processing

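Scaling by RLE factors and age as a covariate left every count of called members and genes within 1.5 times its main value. The index differences moved by less than the pooled SD within groups, 0.149, under each alternative run for the index. That limit is wide: with the REV-ERB receptors as the only outputs, refed minus unrestricted was 0.162 instead of 0.299. The term for library number was not run for the index. The ranges of the differences without single libraries were 0.279 to 0.324 (refed minus unrestricted), 0.253 to 0.295 (refed minus restricted) and 0.00354 to 0.0488 (restricted minus unrestricted). Among changes that passed the test, 1 took the other sign, that of Bhlhe40 in restricted against unrestricted mice, at -0.065 in libraries up to 28. Changes near 0 that did not pass also crossed 0 when single libraries were left out, among them Bmal1 in restricted against unrestricted females, with a range of -0.11 to 0.0021. No paired analysis was possible because replicate numbers come from the order of sample records and pair nothing.

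Counts that moved were as follows, with ranges when single libraries were left out. Restricted against unrestricted: 669 genes and 1 member up to 28, 1644 genes from 29, and 1 to 3 members (2459 to 3008 genes). Refed against restricted: 2 to 5 members (2280 to 3641 genes). Refed against unrestricted: 197 genes with DESeq2, 894 with voom, 19 with the term for number, 6 up to 28 and 459 without the 3 libraries, with 0 members under the term and 0 up to 28, and 82 to 677 genes (677 without male control refed replicate 2) and 4 to 6 members.

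In females, restricted against unrestricted gave 1665 genes and 2 members with voom, 0 members without a filter, and 759 to 1330 genes with 0 to 1 member. Refed against restricted gave 1946 genes and 3 members with voom, 2 members with the term, and 693 to 1295 genes. Refed against unrestricted gave 16, 29 and 14 genes with DESeq2, no filter and voom and 2 members with each, 0 members with the term, and 5 to 12 genes with 1 to 2 members. In males, restricted against unrestricted gave 1128 to 1769 genes. Refed against restricted gave 2240 genes with voom and 2239 without the 3 libraries, 1 member with the term and 1 without the 3, and 1122 to 3059 genes (3059 without male control refed replicate 2) with 1 to 2 members. Refed against unrestricted gave 78, 89, 1296, 10 and 864 genes with DESeq2, no filter, voom, the term and the 3 left out, with 1, 1, 5, 0 and 2 members, and 12 to 1815 genes (1815 without male control refed replicate 2) with 0 to 3 members.

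Sex by feeding state gave 1 gene with DESeq2 and 14 without a filter, and genotype by feeding state 1 without a filter. Knockout against control gave 3 and 3 genes over all mice, 5 and 4 in females and 3 and 3 in males with DESeq2 and no filter. Male against female gave 144, 201, 1902, 478 and 1392 genes with DESeq2, no filter, voom, the term and the 3 left out, 2 members with voom, and 28 to 1084 genes (1084 without male control refed replicate 2). The cause of these moves was not tested.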
